A study of Capra hircus with 6 samples.

Results

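Milk proteins reach the alveolus through the secretory pathway, and 102 genes of that pathway were followed in the mammary gland of lactating goats that differ in genotype at the alpha-s1-casein gene, CSN1S1. The genes were taken by symbol from probes that the platform annotation gives 1 gene symbol: components of protein entry into the endoplasmic reticulum, the COPII and COPI coats, p24 and lectin cargo receptors, ARF, ARL and RAB GTPases, SNAREs and VPS proteins. They are 102 of 6535 genes named on the array, and each was read by its brightest probe. The rule goes by symbol only, and 7 of the 102 (LMAN1L, ARL14EP, VPS72, ARL6IP1, ARL6IP4, ARL6IP5 and SEC14L1) share a prefix but have another or a less certain role. They were kept and are described last.

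The study compared 3 goats of the Low CSN1S1 genotype with 3 of the High genotype. Scanner headers code the Low goats as FF and the High goats as AA. All 6 goats were lactating and had been without food for 48 h, so no fed goat enters any value here, and the age, breed and lactation stage of the animals are not given in the sources used here. A Low and a High goat were hybridized together on an array with 2 dyes, Cy3 and Cy5, and once more with the dyes exchanged, which gave 3 pairs of goats named A, B and C. The 6 arrays therefore give 12 readings of a probe, 6 per genotype, and n is the 3 goat pairs. Each value below is the log2 of the Low signal over the High signal, with negative numbers where the Low goat was dimmer.

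A protein bound for milk is recognised as it is made by the signal recognition particle and threaded through the SEC61 channel into the endoplasmic reticulum. COPII-coated vesicles carry it to the Golgi apparatus, COPI-coated vesicles return escaped residents, and RAB GTPases and SNAREs direct the later vesicles to the apical membrane, where caseins are released by exocytosis. In goats, alpha-s1-casein is known as a casein whose absence slows the export of the other caseins from the endoplasmic reticulum. The comparison thus asks whether the RNA of the export machinery differed between goats that make much or little of this casein.

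CSN1S1 itself checked the labels: its log2 ratio was -2.71 ± 0.13 (SD, n = 3), a signal 6.55-fold lower in Low goats (limma adjusted p = 2.91e-09). Milk-secreting epithelium was present in each sample, since CSN1S2, CSN3, LALBA, PAEP and LTF stood above background in 12 of 12 readings. Of 14 luminal markers on the array 11 did so. ELF5 had 5 Low and 6 High such readings, BTN1A1 5 and 5, and XDH 1 and 3. The summed level of the luminal markers was 44000 to 71970 in Low goats and 73020 to 80300 in High goats. Without CSN1S1 these sums overlapped, at 39160 to 69860 and 42060 to 62570, and 0 of the other 11 tested luminal markers passed. Sums weigh the brightest probes most and can hide markers that differ in opposite directions. LTF was at -0.67 (limma adjusted p = 0.170) and below 0 on 6 of 6 arrays, as for 1.86% of all tested probes, and PAEP was at -0.44. LALBA was at 0.55 (adjusted p = 0.170) and above 0 on 6 of 6 arrays, as for 1.13%, and CSN1S2 was at 0.33. In whole tissue, fewer cells of a type and less RNA per cell cannot be told apart. The sums of markers of myoepithelium, leukocytes, fibroblasts, adipocytes, endothelium and plasma cells overlapped between genotypes, and 0 of their tested genes passed. Only 3 fibroblast and 2 endothelial markers were tested. SPARC (-0.13, a dim probe) and VIM (-0.11), of fibroblasts, and IGHG1 (-0.11), of plasma cells, were below 0 on 6 of 6 arrays. For SPARC all Low goats lay below all High goats, as for 0.683% of all tested probes. The third fibroblast marker, DCN, was at 0.0031, and the plasma cell genes JCHAIN, SDC1 and MZB1 were at 0.020, 0.044 and -0.0044. Median signal over background was 2.67 to 6.00 per reading, and 66.3% to 87.4% of probes stood above background.

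Most of the pathway was measurable, as was most of the array. Of the 102 genes, 59 stood above background (by more than 2 background SDs) in 12 of 12 readings, 16 in 6 to 11, 17 in 1 to 5, and 10 in 0. A gene was tested when at least 6 readings were above background, which 75 genes were. By the same rule 6733 of all 8379 probes were tested, and 5134 of these were above background in 12 of 12 readings. The 27 that were not tested include ARL11, KDELR3, RAB33B, RAB38, RAB5A, SEC31A, STX7, STX8, VPS52 and VPS54, which were above background in none. For the endoplasmic reticulum coat protein pair SEC31A and SEC31B the readings were 0 and 12, and for the endosomal GTPases RAB5A and RAB5C likewise 0 and 12. These counts describe probes, whose levels cannot be set against each other. SNAREs were the least measured role, with 3 of 8 genes tested.

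**Figure D1:**
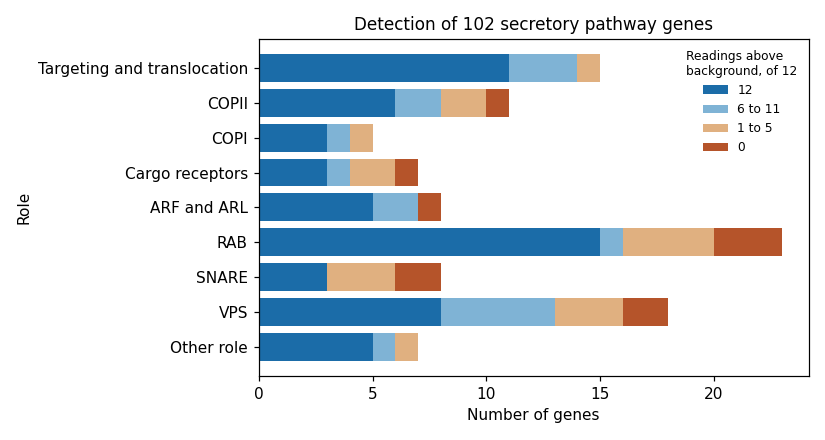
The bars count genes of each role (x axis, number of genes) by how many of the 12 readings stood above background. Genes in the darker and lighter blue were tested. Targeting and translocation had 14 of 15 genes tested, SNAREs 3 of 8.

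The number of readings above background was equal in Low and High goats for 82 of the 102 genes, higher in Low goats for 9 and lower for 11. The largest difference was 3 readings: SEC23IP, a SEC23-binding protein, had 0 Low and 3 High readings, and STX18, a SNARE of the endoplasmic reticulum, had 1 Low and 4 High. Neither was tested.

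No gene of the set passed the test. Of 75 genes, 0 had a limma adjusted p under 0.05, against a background of 0.446% of all tested probes (30 of 6733). The smallest adjusted p was 0.170 (ARF3) and the largest 0.996 (VPS39). An unadjusted p under 0.05 was reached by 2 genes below 0 (2.67%; all probes 5.47%) and 5 above 0 (6.67%; all probes 5.79%), shares near or under the background. Log2 ratios ran from -0.16 to 0.17, with 36 genes below 0 and 39 above. The median was 0.0052, and 0.0031 over all tested probes. Pair medians were 0.013 in A, -0.012 in B and 0.0030 in C. For a single gene, the SD between pairs had a median of 0.055.

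The size of difference that the data allow can be read from the intervals. For all 75 genes the 95% interval of the log2 ratio, taken gene by gene from the limma fit, lay within 1.3-fold in either direction, from -0.24 at the lowest bound to 0.32 at the highest, as it did for 99.3% of all tested probes. These bounds rest on the pairing of goats on shared arrays and on a spread pooled over probes. With the spread of each gene's own pairs alone, 70 of 75 lay within 1.3-fold and 75 within 2-fold. With the goats unpaired, 24 lay within 1.3-fold and 71 within 2-fold, with bounds from -1.50 to 1.48. With a standard error of 0.039, the median of the set, a log2 ratio of about 0.22 would have been needed to pass the adjusted threshold at the present number of calls.

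**Figure D2:**
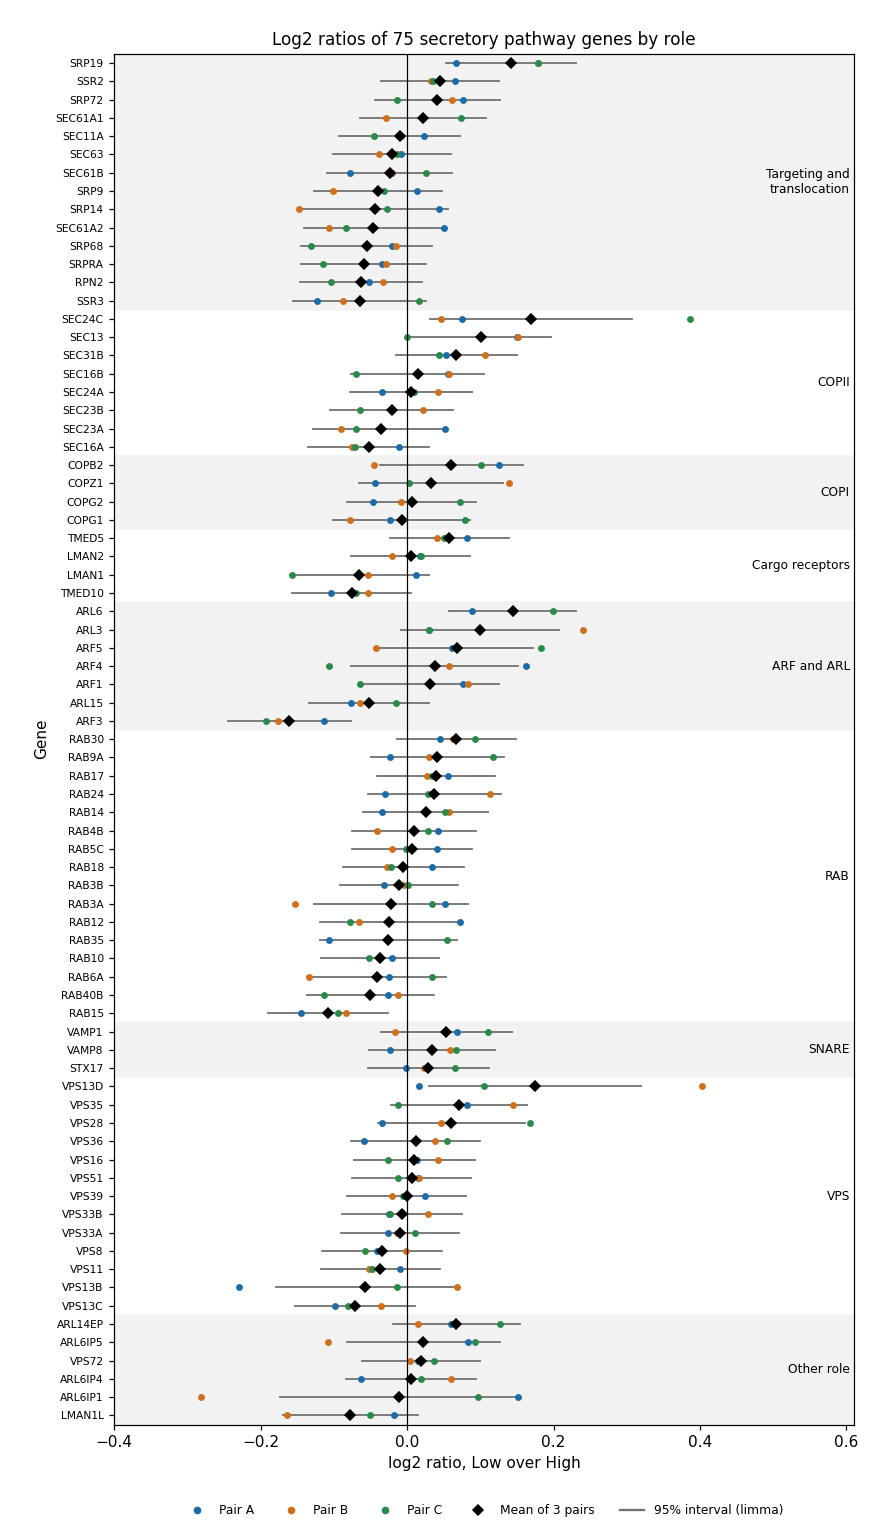
Log2 ratio of Low over High (x axis) for the 75 tested genes, grouped by role. Coloured points are the 3 pairs of goats, diamonds their mean, and lines the 95% interval of the limma fit. All intervals lie between -0.24 and 0.32, and pair C of SEC24C, pair B of VPS13D and pair B of ARL6IP1 stand farthest from the other pairs of their gene.

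Genes of protein targeting and translocation lay slightly to the lower side. Of 14 tested, 10 were below 0 and 4 above, the median was -0.032, and 0 passed. Of all tested probes, 3247 were below 0 and 3486 above, and the median size of a ratio was 0.0386. The median of these 14 genes was below 0 under each of 19 other settings, which reuse the same arrays. By pair it was 0.017 in A, -0.029 in B and -0.021 in C. Within the signal recognition particle, the ribonucleoprotein that halts translation and docks the ribosome, the proteins did not share a sign: SRP9 was at -0.040, SRP14 at -0.043 and SRP68 at -0.055, while SRP72 was at 0.041 and SRP19 at 0.14. The alpha subunit of its receptor, SRPRA, was at -0.059. The SEC61 channel gave 0.022 for SEC61A1, -0.046 for SEC61A2 and -0.024 for SEC61B.

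SRP19, which binds the RNA of the particle during its assembly, was the gene of this role with the smallest p. Its 6 arrays gave -0.087 and 0.22 in pair A, 0.058 and 0.30 in pair B, and 0.034 and 0.32 in pair C, where the second value of each pair has the Low goat in Cy3. It was higher in the Low goat on 5 of 6 arrays, and in each pair the Cy3 array gave the higher ratio. The mean was 0.14 ± 0.065 (SD, n = 3; unadjusted p = 0.0055, limma adjusted p = 0.287). Next by p were RPN2, a subunit of the oligosaccharyltransferase that glycosylates nascent chains, at -0.063 ± 0.037, and SSR3, of the translocon-associated protein complex, at -0.065 ± 0.072. SSR2 of the same complex was at 0.045, and SSR1, with 1 reading above background per genotype, was not tested. SEC11A, the catalytic subunit of signal peptidase, was at -0.010, and SEC63, which helps chains through the channel, at -0.020.

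In the COPII coat, which buds vesicles from the endoplasmic reticulum, 5 of 8 tested genes were above 0 and 3 below (median 0.0099), and 0 passed. SEC24C, a cargo-binding subunit of the inner coat, gave 0.081 and 0.070 on the arrays of pair A, 0.076 and 0.017 in pair B, and 0.25 and 0.52 in pair C. All 6 values were above 0, as for 1.13% of all tested probes, and pair C lay apart from A and B. Its mean was 0.17 ± 0.19 (SD, n = 3; limma adjusted p = 0.374). SEC13, a structural subunit of the outer coat, was at 0.15 in both A and B and 0.00022 in C, and the mean was 0.10 ± 0.087 (adjusted p = 0.416). Its partner SEC31B was at 0.067 ± 0.034, but its ratio turned with the dye. It gave -0.13, -0.22 and -0.023 with the Low goat in Cy5 and 0.24, 0.43 and 0.11 in Cy3. The inner coat GTPase activators SEC23A and SEC23B were at -0.036 and -0.021. In each pair SEC23A was above 0 with the Low goat in Cy5 and below 0 in Cy3. SEC16A, the scaffold of exit sites and the brightest probe of the role, was at -0.053 ± 0.036. Its relative SEC16B was at 0.014 ± 0.073 and SEC24A, another cargo adaptor, at 0.0054 ± 0.038, while SEC24D had 2 readings above background and no test. The COPI coat had 3 of 4 tested genes above 0 (median 0.019): COPB2 at 0.061 ± 0.093, COPZ1 at 0.033 ± 0.096, COPG2 at 0.0060 and COPG1 at -0.0076. COPB1, the partner of COPB2 in the coat, had 2 readings above background per genotype and was not tested.

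Cargo receptors split evenly. TMED10, a p24 protein that cycles between endoplasmic reticulum and Golgi, was lower in each pair, at -0.10, -0.054 and -0.070 (mean -0.076 ± 0.025, SD, n = 3; limma adjusted p = 0.464). On single arrays it lay between -0.32 and -0.10 with the Low goat in Cy5 and between -0.045 and 0.21 with it in Cy3. TMED5 was at 0.058 ± 0.022. The mannose-binding lectins LMAN1, which ferries glycoproteins in COPII vesicles, and LMAN2 were at -0.066 ± 0.086 and 0.0052 ± 0.022. The retrieval receptor KDELR3 was not measurable, and TMED6 and TMED7 had 1 and 2 readings above background per genotype.

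ARF GTPases recruit coats to Golgi membranes, and ARL proteins are their relatives. Of the 7 tested, 5 were above 0 and 2 below, and 0 passed. The median of 0.038 stayed above 0 under 19 other settings, which reuse the same arrays. By pair the median was 0.062, 0.057 and -0.015. The 2 genes of smallest p in the whole set stood here, with opposite signs.

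ARF3, a Golgi-associated ARF, gave 0.027 and -0.25 in pair A, -0.19 and -0.16 in pair B, and -0.14 and -0.24 in pair C. It was lower in the Low goat on 5 of 6 arrays, and its mean was -0.16 ± 0.042 (SD, n = 3; 1.12-fold, unadjusted p = 0.0018, limma adjusted p = 0.170). ARL6, a GTPase that brings the BBSome coat to membranes at the cilium, gave 0.028 and 0.15, 0.11 and 0.18, and 0.062 and 0.34. It was higher in the Low goat on 6 of 6 arrays, with a mean of 0.14 ± 0.055 (SD, n = 3; 1.10-fold, adjusted p = 0.266). ARF1, the closest relative of ARF3 and the ARF best known for COPI recruitment, was at 0.031 ± 0.084, and its ratio turned with the dye: 0.38, 0.41 and 0.11 with the Low goat in Cy5 against -0.23, -0.24 and -0.24 in Cy3. ARL3 was at 0.10 ± 0.12, of which pair B contributed 0.24 and the other pairs 0.030 each. In each pair it was below 0 with the Low goat in Cy5 and above 0 in Cy3, at -0.13 and 0.61 in pair B. ARF4 was at 0.038 ± 0.14, ARF5 at 0.068 ± 0.11 and ARL15 at -0.052 ± 0.032.

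**Figure D3:**
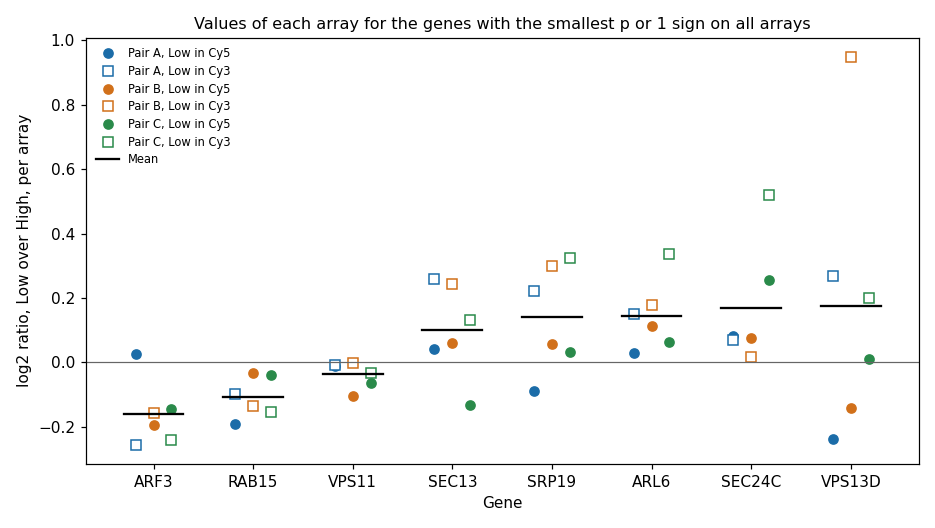
Log2 ratio of Low over High on each of the 6 arrays (y axis) for the 8 genes that had an unadjusted p under 0.05 or 1 sign on all arrays. Filled circles are arrays with the Low goat in Cy5, open squares those with it in Cy3, and bars the mean. RAB15 and VPS11 lie below 0 and ARL6 and SEC24C above 0 on all 6 arrays, while VPS13D spans -0.24 to 0.95.

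RAB GTPases mark the compartments and carriers of the later pathway. Of 16 tested, 9 were below 0 and 7 above, with a median of -0.0082, and 0 passed. RAB15, of the recycling endosome, gave -0.19 and -0.10, -0.033 and -0.14, and -0.038 and -0.15 on the arrays of pairs A, B and C. All 6 were below 0, as for 1.86% of all tested probes, and the mean was -0.11 ± 0.032 (SD, n = 3; limma adjusted p = 0.345). RAB30, a Golgi RAB, was at 0.067 ± 0.024, and RAB40B, an adaptor of a ubiquitin ligase, at -0.051 ± 0.055. RAB10, which serves exocytosis and basolateral sorting, was at -0.037 ± 0.015. In each pair it was above 0 with the Low goat in Cy5 and below 0 in Cy3. RAB3A was at -0.022 ± 0.11, RAB3B at -0.011 ± 0.018 and RAB18, known from lipid droplets, at -0.0052 ± 0.034. The endosomal GTPases RAB4B, RAB5C, RAB9A and RAB14 were at 0.0096, 0.0065, 0.041 and 0.025, with RAB12 at -0.024 and RAB24, linked to autophagy, at 0.037. RAB6A, the Golgi RAB, was dim, with 3 Low and 4 High readings above background, and gave -0.042 ± 0.085.

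RAB17, an epithelial RAB, and RAB35 each had a second tested probe, and neither pair of probes shared a sign. RAB17 was at 0.039 on the brighter probe and -0.040 on the other, and RAB35 at -0.026 and 0.0087, all smaller than their intervals. RAB11A, RAB13, RAB1A and RAB22A had 1 to 4 readings above background and were not tested. Thus RAB1A, which acts between endoplasmic reticulum and Golgi, and RAB11A, of recycling endosomes, have no value here.

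The 3 measured SNAREs, which fuse vesicles with their target, were all above 0: VAMP1 at 0.054 ± 0.065, VAMP8, a SNARE of endosomes and regulated secretion, at 0.034 ± 0.050, and STX17, of autophagosome fusion, at 0.029 ± 0.034. Their limma adjusted p lay between 0.619 and 0.773. SNAP25, STX12 and STX18 had 2 to 5 readings above background and STX7 and STX8 none.

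Of 13 VPS genes tested, 7 were below 0 and 6 above (median -0.00063), and 0 passed. The units of the tethering complexes HOPS and CORVET, which join endosomes and lysosomes, lay close together: VPS11 at -0.037, VPS8 at -0.034, VPS33A at -0.010, VPS39 at -0.00063 and VPS16 at 0.0095. VPS11 was below 0 on 6 of 6 arrays at -0.10 to -0.00026, so the shared sign there goes with a small difference (limma adjusted p = 0.708). VPS35, of the retromer, was at 0.071 ± 0.079 with 3 readings above background per genotype. The ESCRT units VPS28 and VPS36 were at 0.060 ± 0.10 and 0.011 ± 0.061. VPS51, of the GARP tether at the Golgi, was at 0.0061, while its partners VPS52 and VPS54 were not above background in any reading. VPS33B, an endosomal tethering protein with the brightest probe of the role, was at -0.0071 ± 0.030. VPS18, VPS37A and VPS4B had 1 to 4 readings above background and were not tested.

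VPS13D, a lipid transfer protein, had the highest ratio of the set, with values that differed widely between arrays. Its arrays gave -0.24 and 0.27 in pair A, -0.14 and 0.95 in pair B, and 0.0092 and 0.20 in pair C. The mean of 0.17 ± 0.20 (SD, n = 3; limma adjusted p = 0.385) came largely from the value of 0.95 in pair B, and the probe was above background in 5 Low and 3 High readings. Its relatives VPS13B and VPS13C were at -0.058 ± 0.15 and -0.071 ± 0.033.

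The 7 genes taken by prefix only had 6 tested, 2 below 0 and 4 above (median 0.012), and 0 passed. LMAN1L, a relative of LMAN1, was at -0.078 ± 0.077, ARL14EP at 0.067 ± 0.056 and VPS72, a chromatin remodelling subunit, at 0.019 ± 0.017. ARL6IP4 and ARL6IP5 were at 0.0050 ± 0.063 and 0.022 ± 0.11, and SEC14L1 had too few readings for a test. ARL6IP1, which shapes the endoplasmic reticulum, had the widest range between pairs in the set, with 0.15 in A, -0.28 in B and 0.10 in C. Both arrays of pair B were below 0 (-0.34 and -0.22) and those of the other pairs above.

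Between single goats the levels overlapped for every tested gene. All 3 Low goats lay below all 3 High goats for 0 of 75 genes (all probes 0.683%) and above them for 0 of 75 (all probes 0.475%). The SD of a gene's single-channel log2 level had a median of 0.198 over Low goats and 0.208 over High goats, against 0.055 for the ratio between pairs. For ARF3 the Low goats of A, B and C were at 9.83, 10.99 and 10.06 and their High partners at 9.94, 11.16 and 10.25. Each Low goat was lower than its partner, but both goats of pair B stood above all the others. Each pair was measured on its own 2 arrays, so a difference in level between pairs includes any difference between those arrays. Levels on the 2 arrays of a pair were not compared here.

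**Figure D4:**
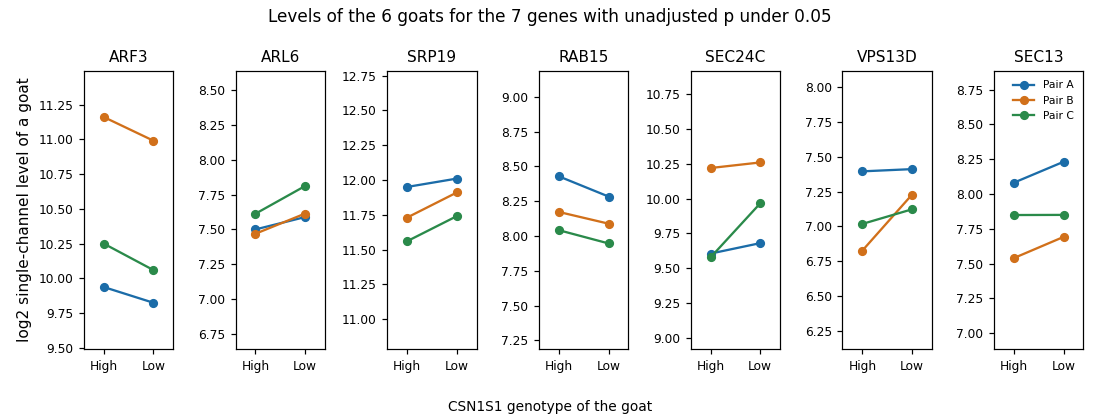
Single-channel log2 level (y axis, each panel spanning the same 2 log2 units) of the 6 goats for the 7 genes with an unadjusted p under 0.05, with lines joining the goats of a pair. The lines of a gene do not slope in opposite ways, but pair C of SEC13 (0.00022) and pair A of VPS13D (0.016) are nearly flat. Their heights differ, so the levels of Low and High goats overlap in each panel.

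The dye had more weight on a single array than the genotype. For 29 of 75 genes (38.7%; all probes 33.6%) the ratio had opposite signs in the dye orientations on all 6 arrays. The dye effect, taken as the difference between orientations divided by 2, had a median size of 0.0897, against 0.0376 for the size of the ratio itself. Over all tested probes these medians were 0.0940 and 0.0386. SRP9 had the largest dye effect: -0.37, -0.53 and -0.25 with the Low goat in Cy5 and 0.40, 0.33 and 0.19 in Cy3, while its mean ratio was -0.040. SRP68 of the same particle showed the reverse order, with a dye effect of 0.32. Averaging the arrays of a pair cancels the part of the dye effect that is equal on both.

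**Figure D5:**
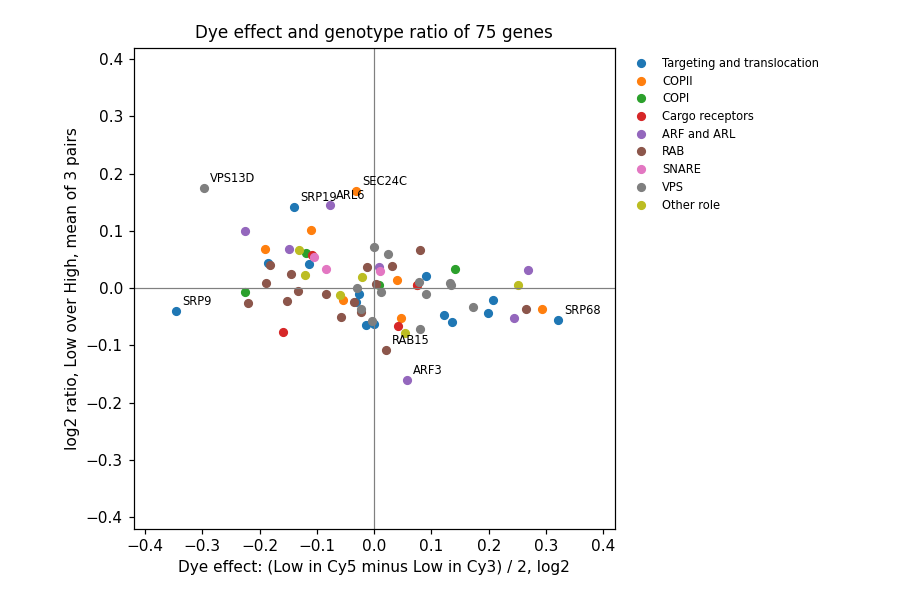
Dye effect (x axis, log2) against the ratio of Low over High (y axis, log2, mean of 3 pairs) for the 75 genes, coloured by role, on equal scales. The genes spread farther along the dye axis, to -0.35 for SRP9 and 0.32 for SRP68, than along the genotype axis, from -0.16 to 0.17.

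Beside these genes, 84 others of the same pathway were read from a list set by symbol: tethers, golgins, SNARE regulators, ARF and RAB regulators, adaptors, clathrin and sorting nexins. Of 72 tested, 1 fell and 0 rose, beside 0.446% of all tested probes called in either direction (28 below 0 and 2 above). Of the 72, 38 were below 0 and 34 above, with a median of -0.0056. The gene that fell was RAB11FIP2, an effector of RAB11 and myosin Vb in recycling endosomes. Its arrays gave -1.02 and -0.91 in pair A, -0.76 and -0.20 in pair B, and -0.78 and -0.55 in pair C, all lower in the Low goat, and the levels of Low and High goats did not overlap. The mean was -0.70 ± 0.24 (SD, n = 3; 1.63-fold lower, limma adjusted p = 0.0024). With the goats unpaired 0 of 6733 probes passed, so that setting says nothing about this gene in particular. With the robust limma fit its adjusted p was 0.0399. RAB11A had too few readings to be tested, and RAB15 and RAB35, which also act in recycling, were at -0.11 and -0.026. STXBP5, which binds syntaxins, was at -0.25 ± 0.15 (adjusted p = 0.138), ARFGEF1, an ARF activator, at 0.14 ± 0.037 (adjusted p = 0.236), and SNX1, a sorting nexin, at -0.14 ± 0.029 (adjusted p = 0.247). The symbols OSTF1, MIA, STAMBP and STAMBPL1 entered this list by prefix only, and so did EXOC3L1 and EXOC3L2, relatives of EXOC3.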

How the data were processed

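RNA of 6 goats was measured on 6 arrays, 5 µg of total RNA labelled per sample per the labels' protocols. The deposited scanner files hold signal and background intensity per spot on a linear scale, read with ImaGene 6.0 per the labels (6.0.1 per the file headers). The deposited series table gives log2 ratios per spot from the authors, normalized in a way not stated in the sources used here. It followed the scanner ratios in direction within 20 intensity bins (lowest r 0.896), with column medians from -0.014 to 0.0034, and served as an alternative. The correlation does not measure scale.

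Background was corrected by normexp (offset 50) in limma 3.58.1 (R 4.3.3), and each array was normalized by 1 loess curve. Spots flagged manual or poor, 24 to 61 per array, were left out, while saturated ones (0 to 9 per reading) were kept. Spots of a probe, then the 2 arrays of a pair, were averaged. The 3 pair means were tested against 0 (lmFit, eBayes, 7.47 prior degrees of freedom against 2 of a probe's own), with Benjamini-Hochberg adjustment over 6733 probes and a threshold of 0.05. Single-channel levels came after loess and Aquantile. The number of arrays limits the precision. The procedure was also run on simulated arrays. There the dye effect of a probe was equal on all arrays, unlike in the data, so no result is drawn from them.

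Platform annotation gives 1 symbol to 6840 of 8379 probes, several to 93 and none to 1446, and 102 of 102 genes of the set occur in the ARS1.2 goat gene table. Genes were named as the 3 of smallest p and the brightest per role, those with 1 sign on all arrays, the largest dye effect and pair range, and probes that disagree. Others are named as units of a complex or relatives. The set, lists and rules were chosen with earlier results of these data known.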

Additional observations from a re-analysis of the deposited data

Results flagged for a closer look

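VPS33B, an endosomal tethering protein with the brightest probe among the VPS genes, had 1 array apart from the others. Its log2 ratio was 0.12 on the pair B array with the Low goat in Cy5, and the other 5 arrays lay between -0.064 and 0.0041. The gap was 0.631 of the whole range, just above the critical value for 6 values. It was the only one among 38 sets of 6 array values examined, and chance alone marks about 1 in 20 sets.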

How the results depend on the processing

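The count of 0 genes past the threshold held in 18 of 20 other settings and became 10 with only the arrays that have the Low goat in Cy5 (4 below, 6 above 0) and 30 with only those in Cy3 (12 below, 18 above). These settings lack the dye exchange, so they carry the dye effect by construction. In Cy5 alone the median of the set was -0.023, and in Cy3 alone COPG1 was at 0.22, RAB35 at 0.19 and SRP9 at 0.31, past the threshold with the opposite sign to the mean. Leaving out a pair gave 0 in each case. The signs of ARF3, ARL6, SRP19, RAB15 and SEC24C held in each of the 18 or 19 settings run, though SRP19 was at 0.0014 at its lowest. A sign that held was not particular to these genes. LMAN1, LMAN1L, RPN2, SEC16A, SSR3, STX17 and VPS35 also kept theirs, with limma adjusted p of 0.497 to 0.773 in the main setting. The signs of SEC13 and VPS13D turned in Cy5 alone. Of 19 settings, the median of a role changed sign in 8 for VPS, 7 for RAB, 2 each for COPII, cargo receptors and the genes taken by prefix, and 1 each for COPI and SNAREs.

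The other pathway genes, 1 past the threshold, gave 13 in Cy5 alone, 24 in Cy3 alone, 0 with no replicate block (goats unpaired), 2 with no filter on dim probes, where the COPI subunit ARCN1 joined at -0.38 (adjusted p = 0.0403; 0 Low and 2 High readings above background), and 1 to 2 without a pair, where STXBP5 joined at -0.33 without pair A (adjusted p = 0.0087). All probes gave 30 in the main setting, 19 with offset 10 and with spot medians, 1153 in Cy5 alone, 2453 in Cy3 alone, 24 to 67 without a pair (67 without A), and 0 unpaired, where 11 had an unadjusted p under 0.05. Intervals of the set lay within 1.3-fold for 74 of 75 genes without background correction, with offset 10 and in the series table, and for 75 with print-tip loess. Setting aside the 7 genes taken by prefix, an alternative chosen after seeing the data, left the count at 0 and the median at 0.0052.

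Signal over background left 27 genes without a test, and 3 pairs limit the precision of the rest.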

Other observations

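A probe annotated to both SEC24B and SEC24A, COPII cargo adaptors, was at 0.064 ± 0.039 (SD, n = 3; limma adjusted p = 0.531), beside 0.0054 for the probe of SEC24A alone. Of the other pathway genes that did not pass, AP2B1, a subunit of the clathrin adaptor at the plasma membrane, was at -0.12 and below 0 on 6 of 6 arrays, as 1.86% of all tested probes were (adjusted p = 0.313). Its probe was dim, with 3 Low and 5 High readings above background. HGS, which sorts ubiquitinated cargo on endosomes, was at -0.19 ± 0.18 (SD, n = 3) and below 0 on 5 of 6 arrays (adjusted p = 0.321). RABGGTA, a subunit of the enzyme that prenylates RAB proteins, was at 0.13 and above 0 on 5 of 6 arrays (adjusted p = 0.321). These 3 genes, next by p after those named in the text, were chosen after their values were seen.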
